A study of Mus musculus with 6 samples.

Results

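The genes described here encode the machinery that brings proteins into mitochondria. They were taken by name: every row of the deposited table named Timm or Tomm followed by a number, and 14 further genes (Timmdc1, Samm50, Mtx1, Mtx2, Pam16, Dnajc15, Dnajc19, Grpel1, Grpel2, Chchd4, Gfer, Romo1, Pmpca and Pmpcb). This gave 40 of the 55356 genes in the table. Of the 40, 12 belong to the outer membrane, 9 to the intermembrane space, 14 to the inner membrane and its import motor, and 2 to the matrix. The other 3 share only the name: Tomm34 is a cytosolic cochaperone, Timmdc1 an assembly factor of respiratory complex I, and Tomm6os a non-coding RNA antisense to Tomm6.

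RNA was sequenced from C2C12 cells, a mouse myoblast line whose cells fuse in culture into muscle fibre-like myotubes. Of 6 libraries, 3 came from myotube cultures kept for 24 h in 20 µM sorafenib, an inhibitor of several protein kinases used against cancer, and 3 from cultures kept for 24 h in 0.1% DMSO. The series describes the 3 libraries of a group as independent experiments on this line, so they give no spread between animals. The study set these groups against each other to learn what the drug does to transcript levels in muscle. Values are the authors' normalized counts, which total 77972419 to 78898086 in the DMSO libraries and 70211431 to 70598400 in the sorafenib libraries. P-values measure only the spread between these cultures.

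Nearly all mitochondrial proteins are made in the cytosol. Proteins with a cleavable leader are recognised by receptors of the TOM complex in the outer membrane, pass its channel, cross the inner membrane through the TIM23 complex and are pulled into the matrix by the PAM motor, where a peptidase removes the leader. Carrier proteins are instead escorted through the intermembrane space by small TIM chaperones to the TIM22 complex, barrel-shaped outer membrane proteins are inserted by the SAM complex, and small cysteine-rich proteins are folded by the MIA disulfide relay. Muscle fibres depend on this route for their dense supply of respiratory enzymes.

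Import genes did not move as a block. A normalized count of 10 or more in 3 or more libraries was required for a test, which 38 members met. Of these, 15 were higher and 17 lower in sorafenib, and 6 did not pass the test (limma on log2(normalized count + 1), Benjamini-Hochberg adjusted p under 0.05 over all 16645 genes tested). That is 32 called members, against 76.6% of all genes tested, with 38.8% of all genes called higher and 37.8% called lower. The share of members called is therefore close to the background and is no result about the members. The median log2 change of the members was −0.04, against 0.02 for all genes. The groups did not overlap in 33 of the 38 members, with 16 higher and 17 lower in every sorafenib library, against 79.5% of all genes tested. The authors' deposited table calls 15 members higher and 14 lower at its adjusted p under 0.05, beside 6213 higher and 6120 lower of all its genes. How many of its 55356 genes had an adjusted p is not given here. These counts therefore give no share to compare and are no result about the members.

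The changes were mostly small. Only Timm8a1 changed by at least 2-fold, whereas 29.8% of all genes tested were called with a change of that size. A log2 change of at least 0.5 in either direction was seen in 12 of the 38 members (31.6%), in 55.5% of all genes tested and in 46.5% of the 8981 tested genes with a mean of at least 1000 normalized counts. Of the 38 members tested, 37 had a mean of at least 1000, and by mean level they lay from the 14.1th percentile of tested genes (Tomm6os) to the 91.6th (Tomm70a). For changes this small the scaling of the libraries matters. Scaling the libraries to equal totals moved the median of all genes by 0.156 on the log2 scale, and with it 19 members were higher and 9 lower, beside 7740 higher and 5271 lower of all 16617 genes then tested. Quantile normalization gave 13 higher and 18 lower members, beside 6739 and 6045 of all 16645 genes. Under all 3 scalings 13 members were higher and 9 lower, and the other 16 were called under some scalings but not under others. The share of all genes called alike under all 3 scalings is not given here. These counts therefore do not set the members apart from other genes.

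**Figure D1:**
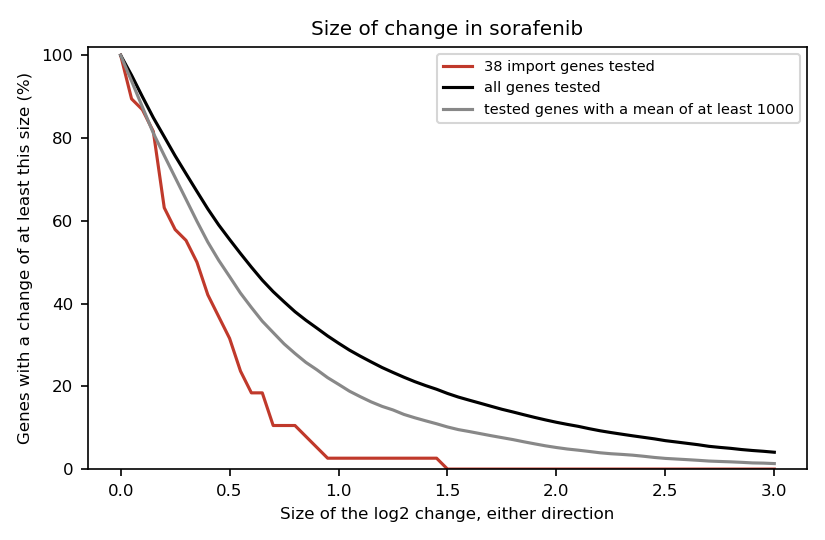
The horizontal axis is the size of the log2 change in either direction and the vertical axis the percentage of genes with at least that change, for the 38 import genes tested, all genes tested, and tested genes with a mean of at least 1000 normalized counts. At a change of 0.5 the import genes stand at 31.6% and all genes at 55.5%.

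Outer and inner membrane genes each held higher and lower members. Of 11 outer membrane genes tested, 5 were higher and 5 lower, with a median log2 change of −0.05. Of 14 inner membrane and motor genes, 6 were higher and 5 lower, with a median of 0.02. With equal totals these medians were 0.10 and 0.18, and with quantile normalization −0.10 and −0.04, so the sign of each depends on the scaling. The medians of all genes were then 0.17 and 0.06. Under all 3 scalings 4 outer genes were higher and 2 lower, and 5 inner genes were higher and 4 lower. The intermembrane space had a median of 0.25 over 8 tested genes, which stayed above 0 under the other scalings (0.41 with equal totals, 0.19 with quantile normalization). There 4 genes were higher under all 3 scalings, and 2 were lower, but 0 were lower with equal totals. Both matrix peptidase genes were lower. These are counts and medians over few genes, and the difference between compartments was not tested.

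**Figure D2:**
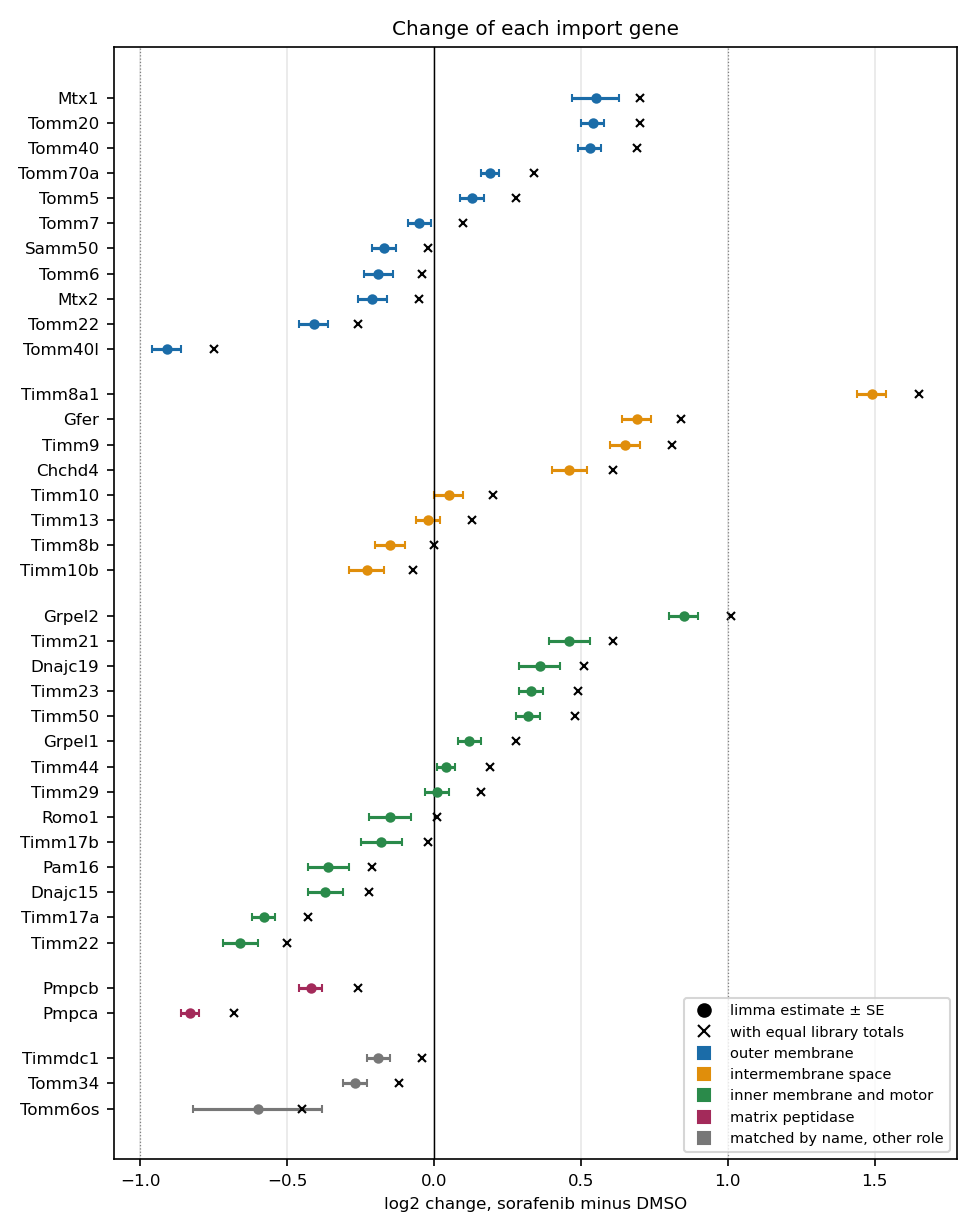
Each row is an import gene that was tested, ordered within its compartment by its log2 change in sorafenib against DMSO on the horizontal axis. Circles are limma estimates with their SE, crosses the estimates with equal library totals, and dotted lines mark 2-fold. Each compartment with more than 3 genes has genes on both sides of 0, and Timm8a1 at 1.49 is the only gene past 2-fold by the limma estimate, while Grpel2 reaches 1.01 with equal totals.

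The 300-base promoters of 36 members (250 bases before to 50 after the start, from RefSeq on GRCm38.p6, 38 promoters in all) were searched on both strands for 4 motifs. The letters CCGGAAG, the core bound by ETS factors, stood in 17 of the 38 promoters (44.7%), against 15.9% of the 14537 promoters of tested genes and 8.86% of all 32851 promoters. The 16 genes with these letters comprised 8 lower, 4 higher, 3 that did not pass and 1 not tested, so they went both ways. The E-box CACGTG stood in 6 promoters (15.8%), against 9.55% and 7.15%. Of its 6 genes, Timm8a1, Timm9 and Tomm20 were higher, Tomm6os lower, Timm10 did not pass and Tomm20l was not tested. Tomm6os, which only shares the name, was low and did not pass with quantile normalization or equal totals. Whether a motif goes with the direction of change was not tested. GCGCATGC, a core of the NRF1 motif, stood in 2 promoters (5.26%, against 4.72% and 2.71%), those of Grpel1 and Timm13. TGATGCAA, a core shared by ATF4 and C/EBP factors, stood in 0, against 0.667% and 0.895%. None of these motifs contains another. A match describes letters in this window, not a bound site. The promoters of the E-box genes that were higher and of both matrix peptidase genes are printed below with their genes. They were picked by motif and direction together, so the choice shows no link between the 2. Grpel1, Mtx1, Timm23 and Tomm70a, which hold the ETS core and were higher, are not printed.

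The TOM complex was divided: the channel gene Tomm40 and the receptor genes Tomm20 and Tomm70a were higher, and the receptor gene Tomm22 and the channel relative Tomm40l lower. Of 8 genes tested, 4 were higher and 3 lower. Tomm40, which forms the channel, was at 4011.4, 3854.6 and 3829.5 normalized counts in DMSO replicates 1 to 3 and at 5956.2, 5497.0 and 5484.9 in sorafenib replicates 1 to 3. All sorafenib libraries lay above all DMSO libraries, and the log2 change was 0.53 ± 0.04 (SE, limma adjusted p = 4.02e-06). Tomm40l, a second channel gene of the same family, went from 2528.7, 2473.2 and 2412.3 in DMSO to 1363.0, 1235.8 and 1350.4 in sorafenib. It had the largest fall of all members, a log2 change of −0.91 ± 0.05 (SE, limma adjusted p = 4.08e-07), again without overlap. Tomm40 lies on chromosome 7 at 19701313 to 19715438 and Tomm40l on chromosome 1 at 171216011 to 171222514, both on the minus strand (GENCODE M21 on GRCm38, protein-coding genes).

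Receptors of the outer membrane were divided. Tomm20, the receptor for leader peptides, was at 8199.8, 8302.1 and 7919.5 in DMSO and at 12638.6, 11460.4 and 11499.1 in sorafenib. This is a log2 change of 0.54 ± 0.04 (SE, limma adjusted p = 4.2e-06), with Tomm40 the largest rise in the TOM complex, and the groups did not overlap. Tomm22, the central receptor that docks the others, was instead below DMSO in every sorafenib library, at 6815.7, 6437.0 and 6637.9 against 4677.6, 5122.6 and 5170.4. Tomm22 changed by −0.41 ± 0.05 (SE, limma adjusted p = 3.75e-05). Tomm70a, the receptor for carrier proteins, rose slightly, from 10333.9 ± 272.2 to 11757.5 ± 243.2 (SD, n = 3 each), with a log2 change of 0.19 ± 0.03. The E-box of Tomm20 lies 126 bases before the RefSeq start. Its promoter, shown because it holds the motif in a receptor gene that was higher, lies on the minus strand of chr8:126945872-126946171 in GRCm38.p6 and is given 5′ to 3′ with the motif in capitals.
Tomm20: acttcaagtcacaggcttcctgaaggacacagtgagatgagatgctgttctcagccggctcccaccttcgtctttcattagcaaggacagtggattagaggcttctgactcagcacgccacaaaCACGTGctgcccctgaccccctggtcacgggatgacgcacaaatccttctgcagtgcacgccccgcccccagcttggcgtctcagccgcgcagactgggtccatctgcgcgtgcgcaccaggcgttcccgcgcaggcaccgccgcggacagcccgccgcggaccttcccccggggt

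The small TOM subunits, which steady the channel, hardly moved. Tomm5 was at 2871.2, 2679.9 and 2718.4 in DMSO and 3045.7, 3004.9 and 2984.3 in sorafenib, a log2 change of 0.13 ± 0.04 without overlap. This passed (limma adjusted p = 0.0196), but limma gave an adjusted p of 0.223 with quantile normalization and of 0.0624, 0.0602 and 0.0528 without DMSO replicate 2, DMSO replicate 3 or sorafenib replicate 2. Tomm6 changed by −0.19 ± 0.05, and by −0.04 with equal totals, which does not pass. Tomm7 overlapped between the groups, with a change of −0.05 ± 0.04 that did not pass, though −0.11 with quantile normalization did (limma adjusted p = 0.0473). Tomm20l, a relative of Tomm20, was listed at 0 in all 6 libraries and was not tested.

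Of the SAM complex and its metaxin partners, Mtx1 was higher. It was at 1358.4, 1239.7 and 1101.1 in DMSO and 1790.9, 1693.6 and 1904.4 in sorafenib, a log2 change of 0.55 ± 0.08 (SE, limma adjusted p = 0.000227). No sorafenib library fell within the DMSO range. Its partner Mtx2 was at 3104.1, 3184.2 and 3351.5 against 2639.8, 2777.7 and 2930.2, and Samm50, the barrel that inserts other barrel proteins, at 9875.2, 9604.1 and 10121.5 against 8744.5, 8462.6 and 9044.6. Both lay below DMSO in every sorafenib library, with log2 changes of −0.21 ± 0.05 and −0.17 ± 0.04 that passed (limma adjusted p = 0.00487 and 0.00241). With equal totals they were −0.05 and −0.02 and did not pass.

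In the intermembrane space the largest rise of all members was that of Timm8a1, a small TIM chaperone that pairs with Timm13. It was at 966.5, 913.1 and 900.2 in DMSO and at 2594.6, 2653.1 and 2589.2 in sorafenib. The groups were far apart relative to their spread, with a log2 change of 1.49 ± 0.05 (SE, limma adjusted p = 1.32e-08), 2.82-fold. Timm8a1 lies on the minus strand of chromosome X at 134537256 to 134541865 (GENCODE M21 on GRCm38). Of the sequence of its main transcript, 41.8% of 31-base words also occur in Gm9797, a pseudogene per RefSeq, so how reads were shared out between this pair is uncertain. Gm9797 was listed at 224.9, 194.0 and 196.0 in DMSO and 701.6, 605.4 and 646.5 in sorafenib, and the sum of both genes changed by 1.53. Timm8a2, a close relative, had values of 0.91, 4.60 and 0.92 in sorafenib and 0 in DMSO, which amounts to a few reads, and was not tested.

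The partners of Timm8a1 and its relatives did not rise with it. Timm13 was at 5311.1, 5017.8 and 5204.7 against 5151.1, 5102.1 and 5054.2, an overlap with a change of −0.02 ± 0.04, which turns to 0.13 and passes with equal totals. Timm8b, another member of this family, was at 1186.6, 1223.1 and 1184.4 against 1057.5, 1114.3 and 1057.1. Its log2 change of −0.15 ± 0.05 passed (limma adjusted p = 0.0242) but was 0.00 with equal totals. Without DMSO replicate 2, sorafenib replicate 1 or sorafenib replicate 3 its limma adjusted p was 0.0692, 0.0524 and 0.0778, and with no filter on low values 0.0632.

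Timm9 and Timm10 form a hexamer that carries hydrophobic precursors, and their transcripts parted. Timm9 was at 1254.7, 1211.4 and 1290.4 in DMSO and 1874.7, 2012.3 and 2025.4 in sorafenib, a log2 change of 0.65 ± 0.05 (SE, limma adjusted p = 3.55e-06) with no overlap. Timm10 was at 1344.7, 1259.6 and 1359.8 against 1378.6, 1351.0 and 1368.2, which overlap. Its change of 0.05 ± 0.05 did not pass, and was 0.20 and passed with equal totals. Timm10b, which docks this hexamer at TIM22, was at 1378.2, 1265.3 and 1261.6 against 1057.1, 1136.3 and 1137.2, a change of −0.23 ± 0.06 (limma adjusted p = 0.00708) that did not pass with equal totals (−0.07).

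The promoters of Timm8a1 and Timm9 each hold the E-box 2 times, and are shown because these are the largest rises among the small TIM genes. Capitals mark the motif, which begins 236 bases before and at base 25 after the RefSeq start of Timm8a1, and 58 bases and 1 base before that of Timm9. GENCODE M21 begins Timm8a1 further upstream, at 134541865 within the printed window, so distances from that start would differ. Both are read 5′ to 3′ from the minus strand of GRCm38.p6, chrX:134541621-134541920 for Timm8a1 and chr12:71136626-71136925 for Timm9.
Timm8a1: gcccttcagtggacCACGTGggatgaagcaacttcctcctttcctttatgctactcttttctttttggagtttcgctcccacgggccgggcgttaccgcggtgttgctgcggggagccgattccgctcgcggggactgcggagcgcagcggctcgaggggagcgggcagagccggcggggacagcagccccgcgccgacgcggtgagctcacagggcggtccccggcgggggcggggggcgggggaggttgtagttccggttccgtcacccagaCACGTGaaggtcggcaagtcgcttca
Timm9: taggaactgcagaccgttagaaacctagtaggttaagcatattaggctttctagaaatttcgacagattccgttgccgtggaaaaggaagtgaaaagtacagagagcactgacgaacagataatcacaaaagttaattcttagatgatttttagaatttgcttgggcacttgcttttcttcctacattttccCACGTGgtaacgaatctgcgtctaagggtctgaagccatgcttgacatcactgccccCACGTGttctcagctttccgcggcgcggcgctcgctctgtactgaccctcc

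Both genes of the MIA disulfide relay were higher. Gfer, the oxidase that recycles the relay, was at 1185.0, 1163.6 and 1209.3 in DMSO and at 1978.4, 1893.0 and 1853.3 in sorafenib. Chchd4, the mouse counterpart of yeast Mia40 that oxidises incoming proteins, was at 2326.3, 2127.6 and 2444.7 against 2986.4, 3175.2 and 3306.5. Neither overlapped between the groups. Their log2 changes were 0.69 ± 0.05 (SE, limma adjusted p = 1.56e-06) and 0.46 ± 0.06 (SE, limma adjusted p = 0.000113).

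**Figure D3:**
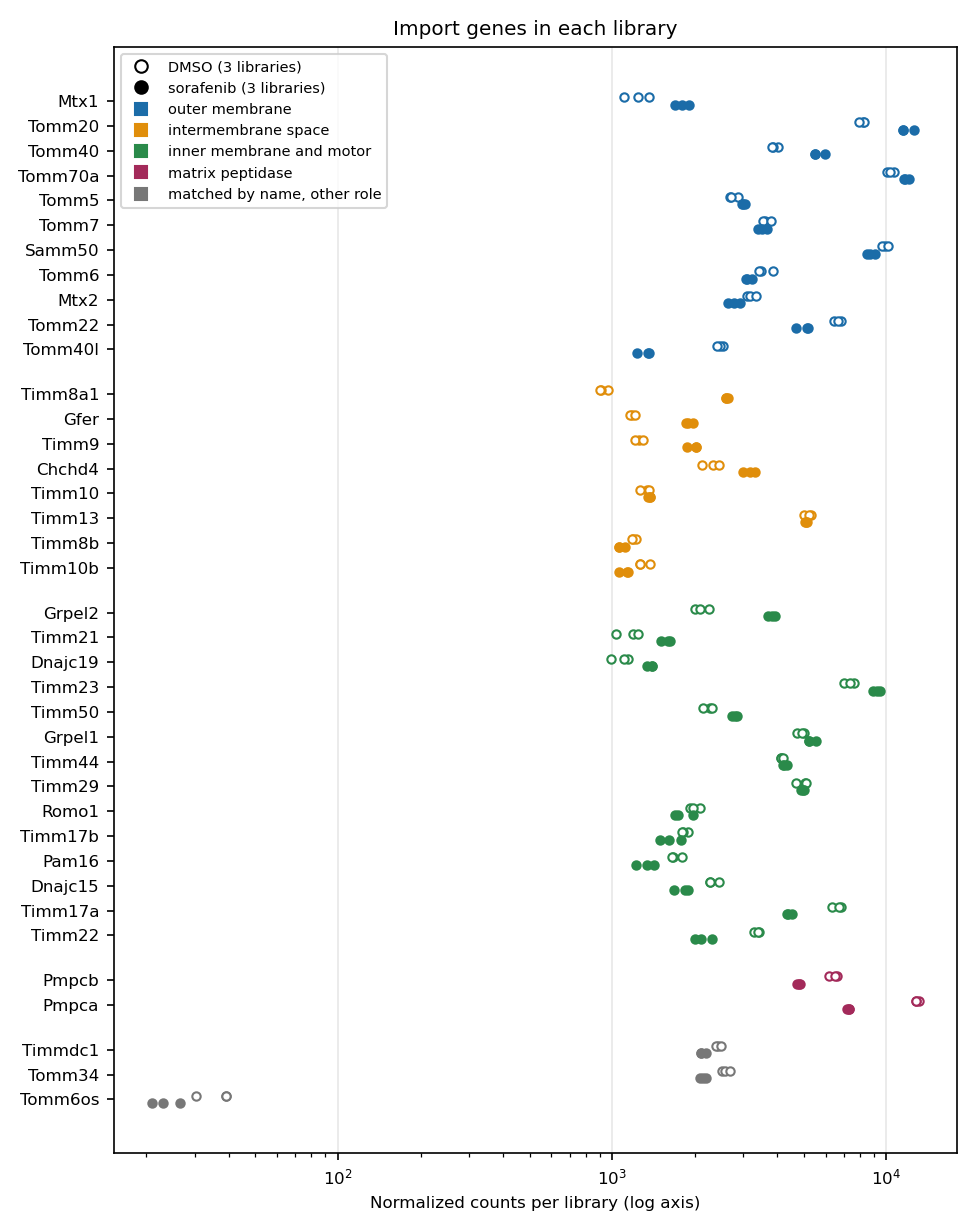
Each row is an import gene that was tested, with its normalized counts in the 3 DMSO libraries (open circles) and the 3 sorafenib libraries (filled circles) on a log axis, coloured by compartment. Most rows show 2 separate clusters of 3 points, and Timm8a1 has the widest gap, from 966.5 at most in DMSO to 2589.2 at least in sorafenib.

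At the inner membrane the TIM22 complex, which inserts carrier proteins, had its channel gene lower. Timm22 was at 3422.5, 3298.3 and 3408.1 in DMSO and 2010.3, 2102.3 and 2304.9 in sorafenib, a log2 change of −0.66 ± 0.06 (SE, limma adjusted p = 4.38e-06) without overlap. Timm29, a subunit of this complex described in human cells, was at 5028.9, 4686.5 and 5098.0 against 5017.2, 4868.5 and 4970.6. These overlap, and the change of 0.01 ± 0.04 did not pass (limma adjusted p = 0.918), while 0.16 with equal totals did.

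Subunits of the TIM23 complex, the inner membrane channel for leader-bearing proteins, went in opposite directions. Of 6 tested, 3 were higher and 2 lower. Timm23, the channel core, rose from 7332.6 ± 300.9 to 9236.9 ± 282.4 (SD, n = 3 each), and Timm50, the receptor that hands over proteins from TOM, from 2244.2 ± 85.8 to 2801.1 ± 59.6. Timm21, which links TIM23 to TOM and the respiratory chain, was at 1189.9, 1034.2 and 1238.8 in DMSO and 1509.9, 1628.4 and 1600.2 in sorafenib. Each of these lay above DMSO in all sorafenib libraries, with log2 changes of 0.33 ± 0.04, 0.32 ± 0.04 and 0.46 ± 0.07 (SE; Timm21 limma adjusted p = 0.000399). Of the 31-base words of the main Timm23 transcript, 92.7% also occur in Gm10273, a pseudogene per RefSeq, listed at 0 in 5 libraries and at 116.3 in sorafenib replicate 3.

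Timm17a and Timm17b encode alternative partners of the Timm23 channel. Timm17a was at 6799.5, 6314.6 and 6739.5 in DMSO and 4329.3, 4382.0 and 4533.2 in sorafenib, without overlap, a log2 change of −0.58 ± 0.04 (SE, limma adjusted p = 1.35e-06). Timm17b was at 1883.4, 1813.9 and 1801.7 against 1490.1, 1774.2 and 1615.8. Its change of −0.18 ± 0.07 was the weakest that passed in this complex (limma adjusted p = 0.037). It was −0.02 with equal totals, and limma gave an adjusted p of 0.0625 to 0.107 without any 1 of the 3 DMSO libraries or without sorafenib replicate 1 or 3. Romo1, a small inner membrane protein related to a yeast TIM23 subunit, changed by −0.15 ± 0.07 and did not pass (limma adjusted p = 0.0679). It passed without sorafenib replicate 1 (limma adjusted p = 0.00673), with quantile normalization (0.016) and with the replicate block (0.0263).

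The PAM motor, which uses the mitochondrial Hsp70 to pull proteins into the matrix, was divided as well, with 3 of 6 genes higher and 2 lower. Grpel2, a nucleotide exchange factor for this Hsp70, was at 2009.3, 2090.2 and 2248.5 in DMSO and 3925.1, 3817.0 and 3694.5 in sorafenib. It had the second largest rise of the members, a log2 change of 0.85 ± 0.05 (SE, limma adjusted p = 5.07e-07), with no overlap. Its counterpart Grpel1 was at 4993.0, 4721.5 and 4920.4 against 5520.1, 5202.8 and 5207.4, a change of 0.12 ± 0.04 (limma adjusted p = 0.0209). The Grpel1 change did not pass with quantile normalization (limma adjusted p = 0.0919), or when DMSO replicate 2 (0.0697) or sorafenib replicate 1 (0.055) was left out.

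The J-domain genes of the motor, which stimulate the Hsp70, parted. Dnajc15 was at 2271.7, 2280.1 and 2445.4 in DMSO and 1674.3, 1890.9 and 1847.6 in sorafenib, while Dnajc19 was at 1143.8, 1104.4 and 987.8 against 1344.1, 1393.3 and 1402.3. Each was without overlap, with log2 changes of −0.37 ± 0.06 (SE, limma adjusted p = 0.000341) and 0.36 ± 0.07 (SE, limma adjusted p = 0.000867). Pam16, a J-like regulator of the motor, changed by −0.36 ± 0.07. Of its 31-base words 89.0% occur in Gm9803, a pseudogene per RefSeq, which was at 49.9 to 85.1, and the sum of both changed by −0.37. Timm44, which tethers the motor to the channel, changed by 0.04 ± 0.03 and did not pass, but by 0.19 with equal totals, which passed.

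In the matrix, the peptidase that removes leader peptides had both subunit genes lower. Pmpca was at 13105.3, 12798.8 and 12866.9 in DMSO and 7287.3, 7158.2 and 7324.7 in sorafenib, a log2 change of −0.83 ± 0.03 (SE, limma adjusted p = 2.45e-08). Pmpcb, the catalytic subunit, was at 6581.3, 6151.9 and 6468.0 against 4723.1, 4790.1 and 4831.0, a change of −0.42 ± 0.04 (SE, limma adjusted p = 6.8e-06). Neither gene overlapped between the groups, and both were lower under all 3 scalings. Their promoters each hold the ETS core CCGGAAG 1 time, 53 bases before the start of Pmpca and 16 before that of Pmpcb. They are shown, with the motif in capitals, because both subunit genes of this enzyme were lower, Pmpca by more. Both are read 5′ to 3′ from the plus strand of GRCm38.p6, chr2:26389098-26389397 for Pmpca and chr5:21736910-21737209 for Pmpcb.
Pmpca: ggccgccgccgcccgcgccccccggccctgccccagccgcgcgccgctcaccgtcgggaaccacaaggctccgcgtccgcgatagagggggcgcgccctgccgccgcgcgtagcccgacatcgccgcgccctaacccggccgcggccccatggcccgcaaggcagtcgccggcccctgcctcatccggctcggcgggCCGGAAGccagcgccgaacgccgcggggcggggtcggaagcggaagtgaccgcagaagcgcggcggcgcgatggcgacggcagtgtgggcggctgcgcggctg
Pmpcb: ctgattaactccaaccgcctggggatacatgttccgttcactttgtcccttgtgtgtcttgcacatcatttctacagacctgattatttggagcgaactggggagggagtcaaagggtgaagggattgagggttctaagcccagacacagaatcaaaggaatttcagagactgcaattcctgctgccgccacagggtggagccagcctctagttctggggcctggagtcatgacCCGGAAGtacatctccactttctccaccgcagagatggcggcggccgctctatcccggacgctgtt

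Genes that only share the name were lower. Tomm34 was at 2517.0, 2586.8 and 2694.5 in DMSO and 2096.2, 2149.2 and 2200.5 in sorafenib, a log2 change of −0.27 ± 0.04 (SE, limma adjusted p = 0.000411), and −0.12 with equal totals. Timmdc1 was at 2426.8, 2393.3 and 2500.9 against 2102.1, 2189.2 and 2114.3, a change of −0.19 ± 0.04 (SE, limma adjusted p = 0.00255) that was −0.04 and did not pass with equal totals. Tomm6os was low, at 30.3, 39.2 and 39.2 against 21.0, 23.0 and 26.6, a change of −0.60 ± 0.22. It passed (limma adjusted p = 0.033), but under quantile normalization, equal totals, no filter, or without DMSO replicate 2 or 3 or sorafenib replicate 1 or 2 limma gave adjusted p values of 0.0655 to 0.119. For each of these 3 genes every sorafenib library lay below every DMSO library.

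Within a library the ratio of 2 genes does not depend on the factor by which that library is scaled, and it was compared for 6 pairs of related import genes, chosen with earlier results known. Counts were not divided by transcript length here, so only the change of a ratio is read, not which gene of a pair was higher. Tomm40 stood at 1.58 times the count of Tomm40l in DMSO and at 4.29 times in sorafenib. This is a difference of 1.44 between mean log2 ratios, with SDs of 0.02 and 0.07. Timm8a1 went from 0.773 to 2.43 times the count of Timm8b, a difference of 1.65. Per kb of transcript Timm8a1 stayed below Timm8b, at 652.1 against 2312.8 in DMSO and 1838.4 against 2077.8 in sorafenib. The ratio of Grpel1 to Grpel2 went from 2.31 to 1.39 and that of Dnajc15 to Dnajc19 from 2.16 to 1.31, each a difference of −0.73. Per kb Dnajc15 was below Dnajc19, at 376.6 against 1636.8 in DMSO and 291.3 against 2093.9 in sorafenib. Timm17a over Timm17b went from 3.61 to 2.72 and Pmpca over Pmpcb from 2.02 to 1.52, each −0.41. In each of the 6 pairs no sorafenib ratio fell within the DMSO range. Since 79.5% of single genes did not overlap either, this count is no result about the pairs. Quantile normalization is not a factor per library and does move ratios, with Pmpca at −0.75 and Pmpcb at −0.44 in place of −0.83 and −0.42. The exact two-sided permutation p was 0.1 for every pair, also after adjustment over the 6 pairs, which is the smallest p that 3 libraries against 3 allow. In every pair at least 1 gene (Tomm40, Timm8a1, Grpel2, Dnajc19, Timm17a and Pmpca) was also called in the same direction under all 3 scalings. With 76.6% of all genes tested called at the reported scaling, this too is no result about the pairs.

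**Figure D4:**
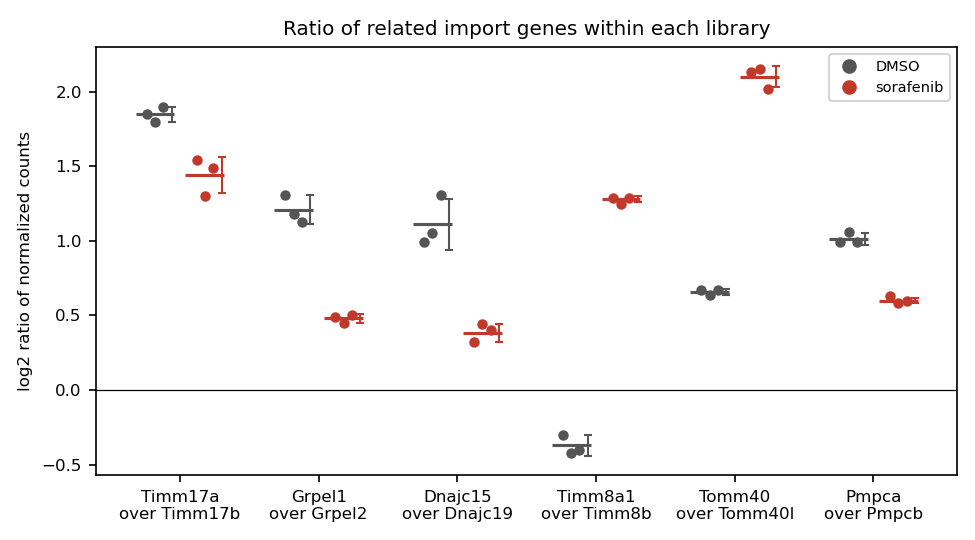
The vertical axis is the log2 ratio of normalized counts of 2 related genes within a library, for 6 pairs, with a point per library and bars for the mean and SD of the 3 DMSO and 3 sorafenib libraries. Counts are not divided by transcript length. The groups are apart in all pairs, widest in Timm8a1 over Timm8b (−0.37 against 1.28) and Tomm40 over Tomm40l (0.66 against 2.10).

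Levels of different genes can be set side by side only per length, here as normalized counts per kb of the longest principal transcript in GENCODE M21. In DMSO the TOM genes ran from Tomm6 at 4789.9 ± 313.0 through Tomm5 (4313.8 ± 158.3), Tomm22 (4225.7 ± 120.8), Tomm7 (3244.4 ± 121.8), Tomm40 (2368.5 ± 59.9), Tomm70a (1732.7 ± 45.6) and Tomm20 (1660.6 ± 40.4) to Tomm40l at 524.5 ± 12.4 (SD, n = 3 each). Tomm5 and Tomm22 lay within their SDs of each other, as did Tomm70a and Tomm20. These SDs are between libraries, and the order of genes within each library was not compared. In sorafenib Tomm40, at 3430.2 ± 163.2, stood beside Tomm22 at 3180.5 ± 173.2 within their SDs, and Tomm20, at 2420.7 ± 136.5, above Tomm70a at 1971.4 ± 40.8. Among inner membrane genes Timm23 was highest per kb in both groups, at 6251.1 ± 256.6 and 7874.6 ± 240.8. Pmpca and Pmpcb, at 4122.4 ± 51.3 and 3963.1 ± 137.8 per kb in DMSO, were apart in sorafenib at 2314.7 ± 27.9 and 2960.6 ± 33.7. The transcript the cells use may be shorter or longer than the annotated one. That would move a gene's level per kb but not its change, as long as both groups use the same transcript, which was not examined.

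**Figure D5:**
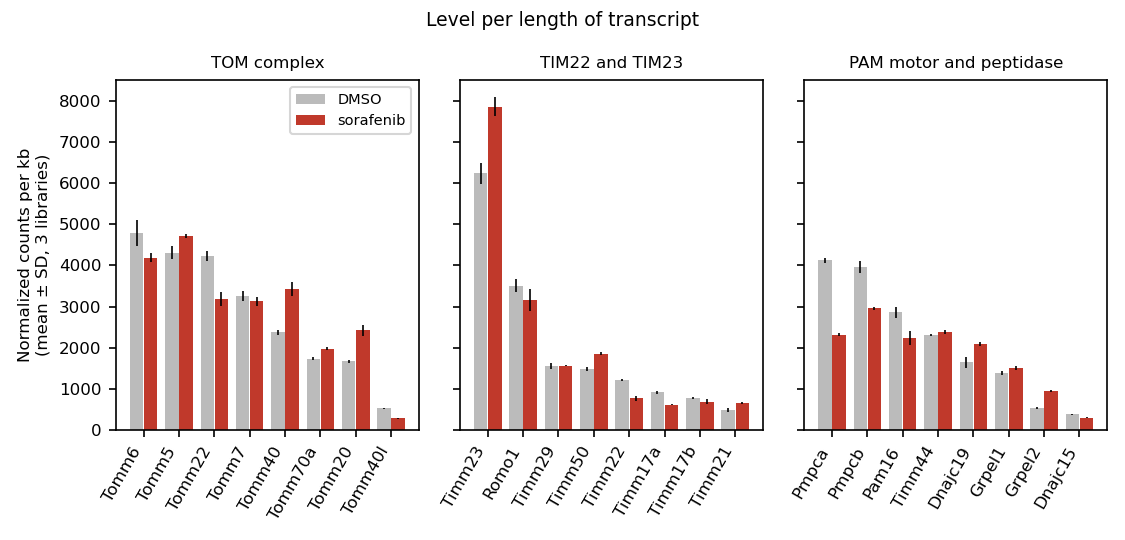
Bars give mean normalized counts per kb of transcript with SD over 3 libraries, for DMSO (grey) and sorafenib (red), in the TOM complex, the TIM22 and TIM23 complexes, and the PAM motor with the matrix peptidase, ordered by the DMSO level. Timm23 is the highest bar of its panel, and Pmpca falls from 4122.4 to 2314.7 per kb.

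Other mitochondrial genes, in a list of 17 that the naming rule does not take, went both ways too: 10 were higher, 6 lower and 1 did not pass. Of all genes tested, 38.8% were called higher and 37.8% lower. Some of the list, such as Apool, are not themselves import factors. Hspa9, the mitochondrial Hsp70 that drives the PAM motor, was at 45074.1, 42176.4 and 43085.4 in DMSO and 104893.7, 100094.9 and 101719.7 in sorafenib. This rise, a log2 change of 1.23 ± 0.04 (SE, limma adjusted p = 7.33e-09), was without overlap. Mtch1, an outer membrane protein that inserts helical proteins in human cells, was at 25986.9, 27297.7 and 27996.5 against 9459.4, 9294.3 and 9548.7, and fell by 1.52 on the log2 scale (SE 0.04, limma adjusted p = 2.75e-09). Apool, a subunit of the MICOS complex of the inner membrane, changed by −1.64 ± 0.06, and was named after its value was seen. Mtx3, the third metaxin, changed by 0.76 ± 0.05, and Agk, a subunit of TIM22 in human cells, by 0.68 ± 0.05. These were also chosen after their values were seen. With equal totals 11 were higher and 5 lower.

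Markers of mitochondrial content and of the cultures moved in the same libraries. Of 8 genes for abundant mitochondrial proteins, 7 were lower and 1, Vdac3, was higher, with a median log2 change of −0.48. Citrate synthase (Cs) changed by −0.61 ± 0.03 and Sdha, of complex II, by −0.80 ± 0.03. All 8 myotube markers were lower by at least 2-fold, their sum falling from between 1613901.6 and 1750300.1 in DMSO to between 453177.1 and 542526.7 in sorafenib. Desmin (Des) and myomaker (Mymk) changed by −1.53 ± 0.04 and −1.76 ± 0.06. Of 6 genes listed as markers of unfused myoblasts, Myf5 was higher (4.24 ± 0.04) and 5 were lower. These were Cdh15 (−1.48 ± 0.04), Pax7 (−1.03 ± 0.07), Mki67 (−1.53 ± 0.08), Ccnb1 (−0.7 ± 0.1) and Top2a (−0.86 ± 0.09). Summed, the list stood at 47807.8 to 52140.2 across DMSO libraries, against 36048.9 to 37733.0 under sorafenib. Cdh15 had the largest mean of the list in DMSO (33663.9), and Myf5 in sorafenib (17590.1). Whether this sum follows unfused myoblasts was not tested. Fewer myotubes and less of the myotube marker RNAs per myotube cannot be told apart in bulk RNA. What part the shifts in these marker lists had in the changes of import genes was not tested.

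Of markers of cell types outside the muscle lineage, those of leukocytes and endothelium were low, and those of fibroblasts were divided. Those of macrophages and leukocytes summed to 112.4 to 119.0 in DMSO and 385.2 to 470.1 in sorafenib over 6 genes, with Adgre1 at 0 in all libraries and Ptprc at 0.98 at most. Cd68 changed by 3.06 ± 0.15 and Itgam by −1.77 ± 0.21. Endothelial markers summed to 34.2 to 56.3 and 40.8 to 57.0 over 4 genes, where Cdh5 changed by −1.69 ± 0.32 and Tek, at 0.96 ± 0.45, did not pass. Fibroblast markers summed to 4866.2 to 5384.1 and 3987.5 to 4195.8 over 4 genes, almost all of it Dcn (4365.8 ± 139.8 in DMSO, 3505.7 ± 100.7 in sorafenib, SD, n = 3 each) and Pdgfra (813.8 ± 138.2 and 619.3 ± 19.3). Their log2 changes were −0.32 ± 0.04 and −0.38 ± 0.12. The other fibroblast markers, Lum and Thy1, were at 4.48 and 3.09 normalized counts at most and were not tested. Whether any of these cell types was present, and its part in the changes of import genes, was not tested.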

How the data were processed

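Poly(A)-selected RNA from 6 C2C12 myotube cultures (3 in DMSO, 3 in sorafenib) was sequenced as stranded libraries, per the labels' protocols. The authors deposited a signal value per gene and library beside their own result table. The submitters' processing notes name DESeq2, bcl2fastq and GRCm38.p6. The column headers end in quant sf, the name that Salmon gives its output of estimated counts, which need not be whole. No source names the quantifier itself, and whether it used strand, and all versions, are not given in the sources used here. Averaging a gene over the 6 libraries returned the base mean in the authors' table to a relative 1e-06. A base mean of this kind averages counts divided by size factors, so the deposited values were read as such normalized counts. No header names their unit. The deposited log2 fold changes, their standard error and Wald score, and the p-value and adjusted p-value are the authors' own. The deposited span per gene, another column, was not used.

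From the value shared by the most low genes, a single read, depth was estimated per library. Only 59.2% to 68.2% of low values were whole multiples of it within 0.02, so no count model was used. limma 3.58.1 in R 4.3.3 (trend, robust) was run on log2(normalized count + 1) over 16645 genes with at least 10 in at least 3 libraries, with group as the only term. It was also run on simulated data in which a small part of the genes had known changes. Those differ from these data, where 76.6% of genes were called, so that run does not cover this setting. Pair ratios were tested in Python 3.11.15 with scipy 1.17.1.

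The members, gene lists, roles, pairs and motifs were chosen with earlier results of these data known. Full values are given for the largest called rise and fall of each role, for all genes of roles with under 3 tested members and for the pairs. Of each list at least the 2 genes with the smallest p are named, with values per library for the import partners only. The other members are given by means or changes, and some also by library. Positions are from GENCODE M21, matched by gene identifier for all 40 members; the positions in the table equal these for 1 member and were not used. 31-base words of each main transcript were looked up in transcripts of other genes. 36 members matched the RefSeq promoter table. No per-sample column was left unused (0 of 6).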

Additional observations from a re-analysis of the deposited data

How the results depend on the processing

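With equal library totals, 9 members were lower in place of 17, and the medians of all members, outer and inner genes became 0.12, 0.10 and 0.18. With quantile normalization these medians were −0.08, −0.10 and −0.04. Timm8b turned to 0.00 and Timm13 to 0.13 with equal totals. Equal totals move every gene by about the same amount. For quantile normalization the cause was not tested. Of 38 members tested, 22 kept their direction and side of the threshold under all alternatives run: 2 scalings, no filter, a stricter filter at 50, a pseudocount of 0.1 or 10, the replicate block, each library left out, and near-identical copies summed, the last added after the data were seen. Leaving out a library gave 13 to 15 higher and 14 to 16 lower members, and no pair ratio changed direction. Counts of calls over all genes stayed within 1.5 times the reported ones. The share of all genes that kept their call under every alternative is not given, so 22 of 38 is no result about the members. The planned count-based test was not run, since the values are not whole reads.

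Same-numbered libraries shared little (correlation of deviations 0.022 to 0.077), though 5 of 6 correlated best with their own number. With the replicate block 15 members were higher and 18 lower.

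Exons of several members overlap a gene on the other strand, as 64.3% of Tomm40l with Nr1i3 (mean 2.4 normalized counts), 20.4% of Pmpca with Inpp5e (1767.2) and 18.7% of Pam16 with Glis2 (4271.5). Most of Tomm6 (87.1% of 31-base words) lies in Gm21981, an overlapping gene on the same strand, and the sum of both changed by −0.13. Changes under about 0.16 on the log2 scale are within the shift between the reported scaling and equal totals. Some larger changes, such as those of Timm10b (−0.23), Mtx2 (−0.21) and Samm50 (−0.17), also did not pass with equal totals.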
